A study of Mus musculus with 6 samples.

Results

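Non-tumour liver of STAM mice was compared with normal mouse liver across microRNAs (miRNAs). STAM mice are a model in which injection of streptozotocin (STZ), a toxin of insulin-producing beta cells, and a high-fat diet are followed by steatohepatitis and hepatocellular carcinoma (HCC); the labels place HCC at 18 weeks. The samples were 2 non-tumour livers of STAM mice on a C57BL6 background (NT 1 and NT 2) and 1 normal liver of a control mouse on the same background, for which no STZ, diet or age is stated. A further 3 HCC samples of STAM mice entered the statistical model only, to estimate the spread. A miRNA was included where its spot lay above the mean plus 2 SD of the blank spots on at least 2 of the 3 NT and normal arrays, and 351 of the 1095 mouse probes used met this rule. Of these, 264 were above the threshold on all 3 arrays, 57 on both NT arrays but not in normal liver, and 30 in normal liver and on 1 NT array. With only 1 normal array, a miRNA seen in normal liver alone could not be included.

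MiRNAs are short RNAs that pair with messenger RNAs, mainly through a stretch near their 5′ end called the seed, and lower their translation or stability. Liver tissue mixes hepatocytes, which are marked by miR-122, miR-192 and miR-194, with stellate cells, endothelium, bile duct epithelium, resident and infiltrating leukocytes and blood. In injured liver, stellate cells become collagen-producing cells and leukocytes enter the tissue. In whole-tissue RNA, fewer cells of a type and less RNA per cell cannot be told apart.

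The mature sequences below are those on which the comparison turned, written 5′ to 3′ with the seed (bases 2 to 8) in capitals, from RefSeq annotation of GRCm38.p6. The first set shows the miRNA that passed the test and some of those of blood cells, mesenchymal cells and injured liver that were higher on both NT arrays.
miR-451: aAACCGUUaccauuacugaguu
miR-223: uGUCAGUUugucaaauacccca
miR-34a: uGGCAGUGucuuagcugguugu
miR-21: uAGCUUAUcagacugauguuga
miR-199a-3p: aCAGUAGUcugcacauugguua
miR-342-3p: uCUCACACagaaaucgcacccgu
No pair of these 6 miRNAs had the same seed. MiR-451 lies at chr11:78073186-78073207 on the plus strand, miR-223 at chrX:96242884-96242905 on the plus strand, miR-34a at chr4:150068473-150068494 on the plus strand and miR-21 at chr11:86584120-86584141 on the minus strand. MiR-342-3p lies at chr12:108658680-108658702 on the plus strand. MiR-199a-3p is encoded at both chr1:162217883-162217904 on the plus strand and chr9:21496498-21496519 on the minus strand, and its probe is named for miR-199b as well.

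The second set shows some of the liver-enriched miRNAs that were lower on both NT arrays after normalization. It includes miR-30a, miR-30c and miR-30e of the miR-30 family, which shared the seed GUAAACA and differed downstream of it. No sequence was found under the names looked up for miR-30b, which differed by 0.09, and miR-30d.
miR-192: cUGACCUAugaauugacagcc
miR-194: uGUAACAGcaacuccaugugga
miR-148a: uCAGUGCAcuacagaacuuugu
miR-30a: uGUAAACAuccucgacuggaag
miR-30c: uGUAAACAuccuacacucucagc
miR-30e: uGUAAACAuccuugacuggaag
MiR-192 lies at chr19:6264857-6264877 on the plus strand, beside a copy of miR-194 at chr19:6264658-6264679. MiR-148a lies at chr6:51269829-51269850 on the minus strand and miR-30a at chr1:23272274-23272295 on the plus strand.

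The third set shows the miR-15 family, whose shared seed AGCAGCA is followed by different 3′ ends.
miR-16: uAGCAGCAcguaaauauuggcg
miR-195: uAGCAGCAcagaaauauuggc
miR-497: cAGCAGCAcacugugguuugua
miR-322: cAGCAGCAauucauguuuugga
miR-15a: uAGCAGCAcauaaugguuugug
miR-15b: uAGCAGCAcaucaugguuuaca
MiR-195 and miR-497 lie together on chromosome 11, at chr11:70235062-70235082 and chr11:70234730-70234751, and miR-322 lies at chrX:53054306-53054327 on the minus strand.

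Levels are given on 2 scales. The raw signal is the pixel median of a spot minus the mean of the array's blank spots, in scanner units, without scaling between arrays. The log2 level is the background-corrected intensity plus an offset of 50, quantile normalized between arrays, and differences are NT minus normal on that scale. The offset draws the differences of dim spots toward 0, and 256 of the 351 miRNAs (72.9%) had a mean raw signal under 50. Signals of different probes are not comparable as amounts of RNA.

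The arrays differed in raw brightness although all 3 were scanned at the same gain. Over the miRNAs above the threshold on all 3 arrays, the median ratio of raw signal to normal liver was 1.15 for NT 1 and 1.44 for NT 2. The summed raw signal was 62779 in NT 1 and 72416 in NT 2, against 56598 in normal liver, and 352 and 490 mouse probes were above the threshold in NT 1 and NT 2, against 316 in normal liver. The 5 brightest probes took 49.7% and 43.0% of the summed signal in NT 1 and NT 2, against 55.0% in normal liver. NT 1 and normal liver were on the same chip, and NT 2 was on another, so a difference of NT 2 from normal liver also spans chips. The labels do not state that the samples came from separate animals, so p-values measure only the spread between these samples. The number of arrays limits the precision throughout.

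The liver label fitted the markers. MiR-122, the dominant miRNA of hepatocytes, had a raw signal of 6150 and 5634 in NT 1 and NT 2 and 5366 in normal liver. None of 6 neural and 4 muscle miRNAs was included. Their summed raw signals were 5.79 and 0.947 for the neural probes in NT 1 and NT 2 against 1.57 in normal liver, and 1.86 and 2.30 for the muscle probes in NT 1 and NT 2 against -4.95 in normal liver.

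After normalization the NT and normal profiles were close. The correlation of log2 levels across the 351 miRNAs was 0.987 between NT 1 and NT 2, 0.975 between NT 1 and normal liver and 0.965 between NT 2 and normal liver; these are descriptions over probes of shared arrays. The SD of the difference across miRNAs was 0.22 between NT 1 and NT 2 and 0.32 between the NT mean and normal liver. The differences had a median of -0.01, quartiles of -0.12 and 0.12, and a range of -0.90 to 2.80. For 220 miRNAs the NT mean lay farther from normal liver than the gap between NT 1 and NT 2. The same count was not made over all tested probes, so no share stands beside it. It also includes miRNAs whose direction the filter set. Both NT arrays were above normal liver for 135 miRNAs and below it for 139, and the other 77 were split or equal. Among all 474 tested probes, 38.8% had both NT arrays above normal liver and 35% had both below. This split depended on scaling: median scaling gave 220 higher and 48 lower, upper-quartile scaling 187 and 79, the authors' processed values 185 and 60, and raw signal without scaling 208 and 59.

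**Figure D1:**
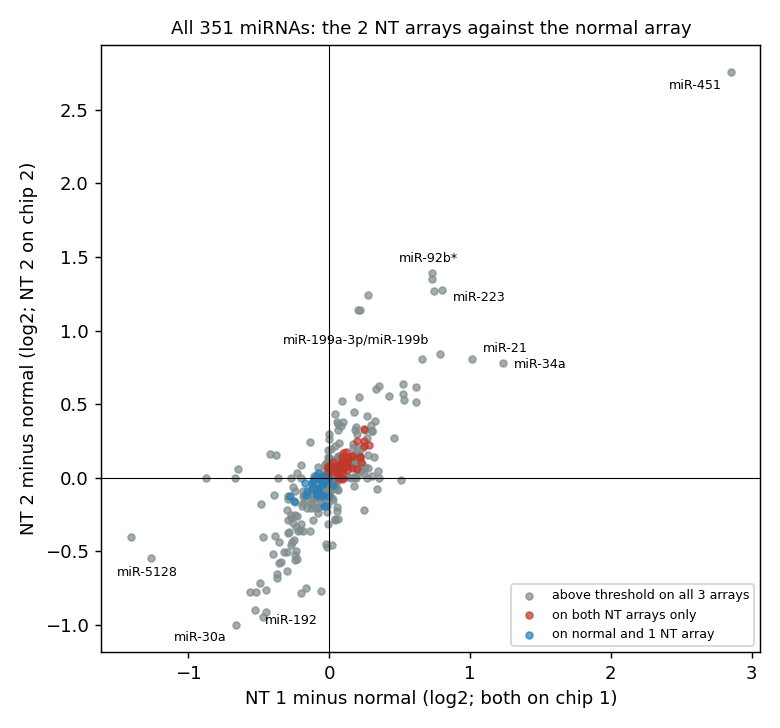
Each point is 1 of the 351 miRNAs; the horizontal axis gives NT 1 minus normal liver and the vertical axis NT 2 minus normal liver, both as log2 differences, coloured by the arrays on which the spot exceeded the blank threshold. Most points lie near 0 and miR-451 lies apart at 2.85 for NT 1 and 2.76 for NT 2.

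MiR-451 was the only miRNA that changed past the threshold, and it rose in NT liver. MiR-451 is made in maturing red blood cells, where it is cut by Argonaute 2 and not by Dicer. Its raw signal was 405 in NT 1 and 526 in NT 2, against 12.8 in normal liver. Both NT arrays were far brighter than the normal array, whose spot was still above its blank threshold. The mean raw signal of NT was 36.5 times that of normal liver, or 21.4 times after the arrays were scaled to the same median. The log2 level was 9.12 ± 0.07 in NT liver (SD, n = 2) and 6.32 in normal liver (n = 1), a difference of 2.80 with a standard error of 0.18. Its adjusted p was 0.0236 by limma's moderated test with Benjamini-Hochberg adjustment over all 474 tested probes, of which 0.211% were called. The next smallest adjusted p among the 351 miRNAs was 0.180.

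The size of the miR-451 difference was at least 2.52 in every one of 23 other settings, with a highest value of 5.18, and it was called in 15 of them, with adjusted p-values of 0.000103 to 0.413. The call ended without NT 1, without NT 2, without HCC 1 and without HCC 2-2, with median or upper-quartile scaling, with the NT and normal arrays alone in the fit, and with chip as a block. Settings that changed only the filter, the HCC arrays or the estimate of spread left the miR-451 difference unchanged by construction. Within the chip that held both samples, NT 1 was 2.85 above normal liver. On the same scale miR-451 stood at 9.17, 8.80 and 9.17 in HCC 1, HCC 2-1 and HCC 2-2, so that normal liver was the single low array of the 6.

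The other red blood cell miRNAs were dim. MiR-144, transcribed together with miR-451, had raw signals of 5.47 and 7.82 in NT 1 and NT 2 and 2.76 in normal liver. MiR-144*, the opposite arm of that hairpin, had 5.47 and 2.82 in NT 1 and NT 2 and -1.24 in normal liver. The probe shared by miR-486 and miR-3107 had 5.47 and 5.82 in NT 1 and NT 2 and 1.76 in normal liver. These 3 probes were above the blank threshold on both NT arrays and not in normal liver, and none was called. MiR-16, abundant in red blood cells and in many other cells, had 452 and 547 in NT 1 and NT 2 and 308 in normal liver, a log2 difference of 0.57 (SE 0.15, adjusted p = 0.298 by limma). Of 8 erythroid entries 7 were included. Both NT arrays were above normal liver for 4, below for 1 (miR-92a) and split for 2 (miR-96 and miR-182). Among all tested probes 38.8% had both above and 35% both below. MiR-144, the miR-486 and miR-3107 probe and miR-96 met the rule through the NT arrays only. That set the direction of miR-144 and of the miR-486 probe, which are among the 4. The median difference of the 7 was 0.07, the value of miR-144, beside -0.00057 over all tested probes. The summed raw signal of the 7 was 895 and 1130 in NT 1 and NT 2 and 352 in normal liver. Most of it came from miR-451 and miR-16. The part of red blood cells left in the tissue in the miR-451 difference was not tested.

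Beyond miR-451, 13 miRNAs had both NT arrays more than 0.5 log2 above normal liver and 5 had both more than 0.5 below. With miR-451 the 14 were 2.95% of the tested probes, and the 5 were 1.05%. None of these 18 passed the threshold. At an unadjusted p under 0.05, 29 of the 351 were higher and 34 lower in NT liver, while 6.75% and 7.81% of all tested probes were.

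**Figure D2:**
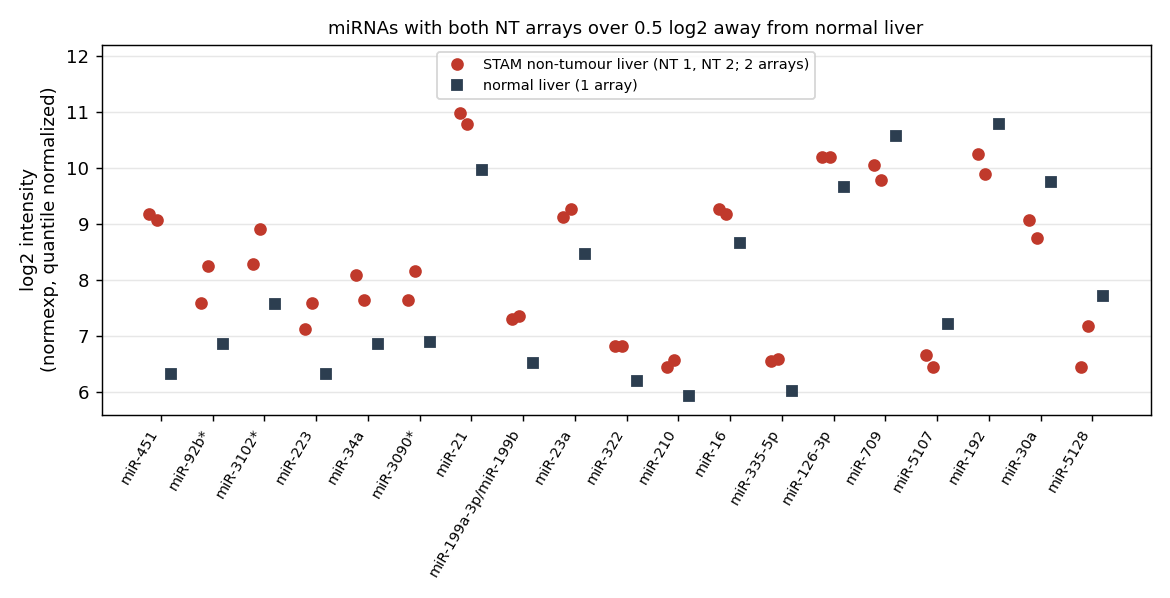
Log2 levels of the 19 miRNAs with both NT arrays over 0.5 above or below normal liver; red circles are NT 1 and NT 2 and the dark square is normal liver, ordered by the difference. The separation is widest for miR-451, and miR-192 and miR-30a at the right have the normal array on top.

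None of the miRNAs of stellate and other mesenchymal cells passed the test, and 7 of the 9 included had both NT arrays above normal liver. Among all tested probes 38.8% did. The probe for miR-199a-3p and miR-199b, which come from hairpins expressed in mesenchymal cells, had a raw signal of 78.5 and 122 in NT 1 and NT 2 against 22.8 in normal liver. Both NT arrays were above normal liver and close to each other after normalization, at 7.34 ± 0.04 (SD, n = 2) against 6.53. The log2 difference was 0.81 (SE 0.10), with an adjusted p of 0.180 by limma, and NT 1 was 0.79 above normal liver within their chip. The partner arm miR-199a-5p had 27.5 and 58.8 in NT 1 and NT 2 and 14.8 in normal liver. MiR-199b* had 16.5 and 33.8 in NT 1 and NT 2 and 8.76 in normal liver. The log2 differences of these arms were 0.24 and 0.25, with adjusted p-values of 0.475 and 0.311 by limma. MiR-143 and miR-145, transcribed together and marking smooth muscle and fibroblasts, had differences of 0.31 and 0.25. Their raw signals were 67.5 and 146 for miR-143 in NT 1 and NT 2 against 43.8 in normal liver, and 106 and 166 for miR-145 in NT 1 and NT 2 against 69.8 in normal liver.

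Of 11 mesenchymal probes 9 were included, none had both NT arrays below normal liver, and the median was 0.24. MiR-10a differed by 0.01 after quantile normalization and by 0.37 with median scaling, with a raw signal of 60.5 and 81.8 in NT 1 and NT 2 and 42.8 in normal liver. In raw signal all 9 were higher on both NT arrays, on a scale where 57.6% of the tested probes were. The median of the list stayed above 0 in all 8 other scalings, at 0.20 to 0.62 relative to all tested probes.

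Of 8 leukocyte miRNAs included, 6 had both NT arrays above normal liver, beside 38.8% of all tested probes, and none passed the test. MiR-223, which is made in neutrophils and other myeloid cells, had a raw signal of 68.5 and 158 in NT 1 and NT 2 against 15.8 in normal liver. Its level was 7.36 ± 0.34 (SD, n = 2) in NT liver and 6.32 in normal liver, a difference of 1.04 (SE 0.23, adjusted p = 0.266 by limma). NT 2 was clearly the higher of the NT arrays, and NT 1 alone was 0.80 above normal liver. MiR-142-5p, specific to blood cells, had 36.5 and 50.8 in NT 1 and NT 2 against 13.8 in normal liver, a difference of 0.35. Its partner arm miR-142-3p had 14.5 and 14.8 in NT 1 and NT 2 against 2.76 in normal liver, where it was not above the threshold. On the offset scale miR-142-3p was at least 1.19-fold higher in NT liver, with an adjusted p of 0.377 by limma.

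MiR-342-3p, carried by lymphocytes and macrophages, had a raw signal of 16.5 and 31.8 in NT 1 and NT 2 against 3.76 in normal liver. Scaled to the same median and without the offset, this was 3.60-fold, although the log2 difference with the offset was 0.49 (SE 0.09, adjusted p = 0.266 by limma). MiR-181a had 9.47 and 17.8 in NT 1 and NT 2 against 1.76 in normal liver, which was below the threshold there, and was at least 1.22-fold higher on the offset scale. MiR-146a, induced by inflammatory signalling, ran the other way after normalization, at -0.09, with raw signals of 37.5 and 42.8 in NT 1 and NT 2 and 30.8 in normal liver. That sign turned with the scaling. MiR-150 of mature lymphocytes was split, with 4.47 and 13.8 in NT 1 and NT 2 and 4.76 in normal liver. MiR-155 of activated lymphocytes and macrophages did not meet the rule.

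The 8 came from 11 leukocyte probes, and 1 had both NT arrays below normal liver. Among the 6 higher ones, miR-142-3p and miR-181a met the rule through the NT arrays only, which set their direction. The median was 0.27, midway between the values of miR-142-3p (0.25) and miR-181a (0.29), whose direction the filter set. It ranged from 0.19 to 1.57 in 8 other scalings, with the same subtraction as for the mesenchymal list. The value of 1.57 was shared by the blank-subtracted settings, which are not separate results. The summed raw signal of the 8 was 201 and 355 in NT 1 and NT 2 against 77.4 in normal liver. At an unadjusted p under 0.05, 4 of the 8 were higher, miR-181a among them, beside 6.75% of all tested probes.

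Of 11 included miRNAs that have been described as raised in fibrotic or steatotic liver, 9 had both NT arrays above normal liver. Among all tested probes 38.8% did, and none of the 11 passed the test. MiR-21, an abundant miRNA of injured and proliferating tissue, had a raw signal of 1362 and 1531 in NT 1 and NT 2 against 593 in normal liver. Its level was 10.88 ± 0.15 (SD, n = 2) in NT liver and 9.97 in normal liver, a difference of 0.91 (SE 0.18, adjusted p = 0.266 by limma). Both NT arrays were clear of normal liver, and the difference was between 0.63 and 1.28 in all 23 other settings without passing in any. As for miR-451, settings that changed only the filter, the HCC arrays or the estimate of spread left the miR-21 difference unchanged by construction. MiR-34a, a target gene of p53, had 194 and 159 in NT 1 and NT 2 against 38.8 in normal liver. The difference of miR-34a was 1.01, but its standard error was 0.46 and its adjusted p 0.398 by limma. Its HCC arrays, at 7.83, 6.82 and 7.22, spread widely and enter that error.

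The 11 came from 14 such probes, none had both NT arrays below normal liver, and the median was 0.24. In raw signal all 11 were higher on both NT arrays, as were 57.6% of the tested probes, and miR-21* and miR-222 met the rule through the NT arrays only. The list shares 4 of its included miRNAs with the mesenchymal list (miR-199a-3p/miR-199b, miR-199a-5p, miR-199b* and miR-214). The medians of both lists are the value of miR-199a-5p, so they are not separate results. MiR-222, which represses the cell cycle inhibitor p27, had 6.47 and 12.8 in NT 1 and NT 2 against 1.76 in normal liver, where it was not above the threshold, and was at least 1.17-fold higher on the offset scale. Its neighbour miR-221 differed by -0.01 after quantile normalization, a sign that turned in 7 of 8 other scalings (highest 0.34). Among the 7, the blank-subtracted settings share the value 0.22, less the median of all tested probes. The raw signals of miR-221 were 51.5 and 77.8 in NT 1 and NT 2 and 39.8 in normal liver.

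Of the 16 liver-enriched miRNAs, 12 had both NT arrays below normal liver after normalization. MiR-192, enriched in hepatocytes and gut epithelium, had a level of 10.07 ± 0.26 (SD, n = 2) in NT liver against 10.78 in normal liver, a difference of -0.71 (SE 0.17, adjusted p = 0.270 by limma). In raw signal it stood at 949 and 954 in NT 1 and NT 2 against 1041 in normal liver. The raw gap was small beside the normalized one, on arrays whose median raw ratio to normal liver was 1.15 and 1.44. MiR-194, from the same hairpin cluster, had 778 and 710 in NT 1 and NT 2 and 736 in normal liver. Its normalized difference was -0.51, and it was 0.02 with median scaling. MiR-148a, a miRNA of differentiated hepatocytes, had 226 and 221 in NT 1 and NT 2 against 275 in normal liver, a difference of -0.61 (SE 0.18, adjusted p = 0.311 by limma).

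MiR-122 itself differed by 0.14 (SE 0.46), and its sign turned in 5 of 8 other scalings. Among the 5, the blank-subtracted settings share the value -0.32, less the median of all tested probes. Of the 16 liver-enriched probes, all above the threshold on all 3 arrays, none had both NT arrays above normal liver and 12 had both below, beside 35% of all tested probes, at a median of -0.35. At an unadjusted p under 0.05, 8 of the 16 were lower, beside 7.81% of all tested probes, and none higher; none was called. In raw signal 8 of the 16 were lower on both NT arrays and 5 higher on both, beside 15.4% and 57.6% of the tested probes. The median of the list stayed below that of all tested probes in all 8 other scalings. It lay at -0.56 to -0.05, nearest 0 with median scaling. The median of all tested probes was subtracted only where a setting moved it by over 0.1. The value of -0.56 was shared by the blank-subtracted settings, which are not separate results.

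**Figure D3:**
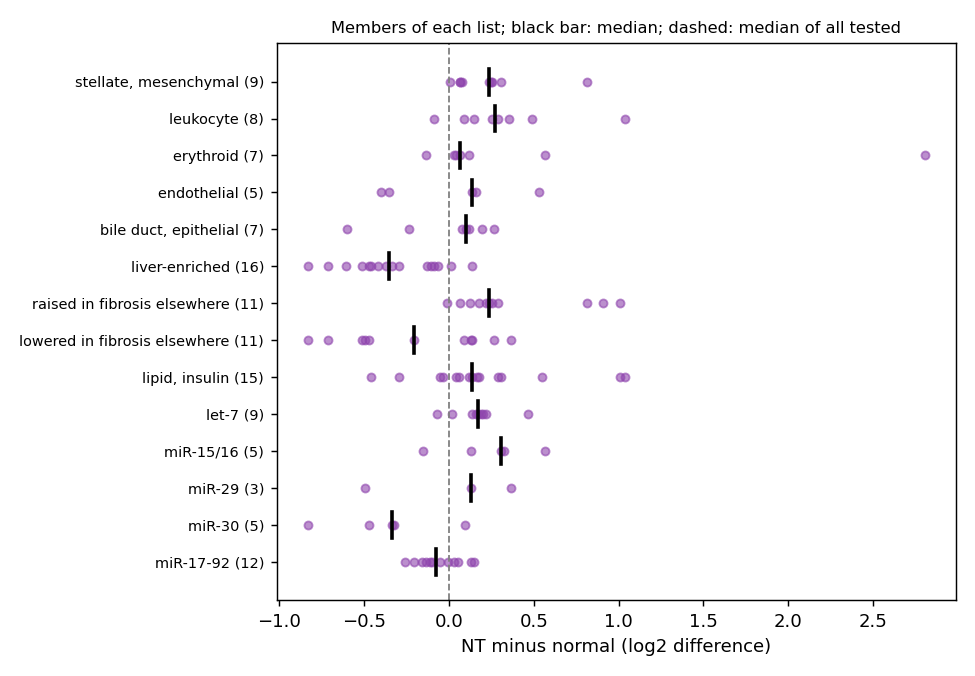
Each point is the NT minus normal log2 difference of a list's included miRNA, with the list's count in brackets; black bars are list medians and the dashed line is the median of all tested probes. Liver-enriched miRNAs lie mostly left of 0 with a median of -0.35, and leukocyte, mesenchymal and fibrosis-raised miRNAs mostly right, with medians of 0.27, 0.24 and 0.24.

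The miR-30 family, expressed in differentiated epithelial cells, was split in raw signal. MiR-30a had 393 and 407 in NT 1 and NT 2 against 529 in normal liver, the one member that was dimmer on both NT arrays. Its normalized difference of -0.83 (SE 0.25, adjusted p = 0.311 by limma) had the largest size among the lower liver-enriched miRNAs. MiR-30c had 450 and 493 in NT 1 and NT 2 against 489 in normal liver, a difference of -0.47 (SE 0.10, adjusted p = 0.266 by limma). MiR-30b had 276 and 291 in NT 1 and NT 2 against 193 in normal liver and differed by 0.09. After quantile normalization 4 of the 5 had both NT arrays below normal liver, beside 35% of all tested probes. The median was -0.34, and it turned to 0.09 with median scaling.

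The miR-29 family, which targets collagen messages and is known to fall in activated stellate cells, did not move as a unit. MiR-29a had a raw signal of 1042 and 1039 in NT 1 and NT 2 against 640 in normal liver. MiR-29b had 785 and 861 in NT 1 and NT 2 against 468 in normal liver. MiR-29c had 275 and 211 in NT 1 and NT 2 against 271 in normal liver. The log2 differences were 0.13, 0.37 and -0.49, with adjusted p-values of 0.833, 0.392 and 0.551 by limma, so the family stood on both sides of 0. Of the 11 included miRNAs that have been described as lowered in fibrosis, 2 had both NT arrays above normal liver and 6 below. Among all tested probes these shares were 38.8% and 35%. The median of the 11 was -0.21, and 0.12 with median scaling. MiR-122, miR-192, miR-194, miR-30a and miR-30c of this list were also counted among the liver-enriched miRNAs.

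The let-7 family, which restrains growth genes, was brighter on both NT arrays in raw signal for all 9 members, as were 57.6% of the tested probes. Let-7c had 894 and 1101 in NT 1 and NT 2 against 594 in normal liver, and let-7i had 89.5 and 167 in NT 1 and NT 2 against 47.8 in normal liver. Their normalized differences were 0.19 and 0.46, each with an adjusted p of 0.270 by limma. Both NT arrays were above normal liver after normalization for 6 of the 9, beside 38.8% of all tested probes, and below for none. The median was 0.18 and lay between 0.10 and 0.61 in the other scalings, with the same subtraction as for the mesenchymal list. Under quantile normalization a miRNA that keeps its rank takes an identical value on each array, so the spread of bright miRNAs of stable rank, such as let-7c, can be understated.

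The 6 probes of the miR-15 family, which targets cell cycle genes and BCL2, were also higher on both NT arrays in raw signal. On that scale 57.6% of the tested probes were. After normalization, 3 of the 5 other than miR-322 had both NT arrays above normal liver and 1 had both below. MiR-322 had both above. Among all tested probes these shares were 38.8% and 35%. MiR-195 had 54.5 and 83.8 in NT 1 and NT 2 against 26.8 in normal liver, a difference of 0.33 (SE 0.06, adjusted p = 0.266 by limma). Its cluster neighbour miR-497 had 26.5 and 53.8 in NT 1 and NT 2 against 12.8 in normal liver, a difference of 0.31. MiR-322, which shares the seed, had 48.5 and 66.8 in NT 1 and NT 2 against 11.8 in normal liver, a difference of 0.62 (SE 0.34, adjusted p = 0.457 by limma). MiR-15a differed in sign, at -0.15, with a raw signal of 221 and 231 in NT 1 and NT 2 and 167 in normal liver, and that sign turned with the scaling.

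**Figure D4:**
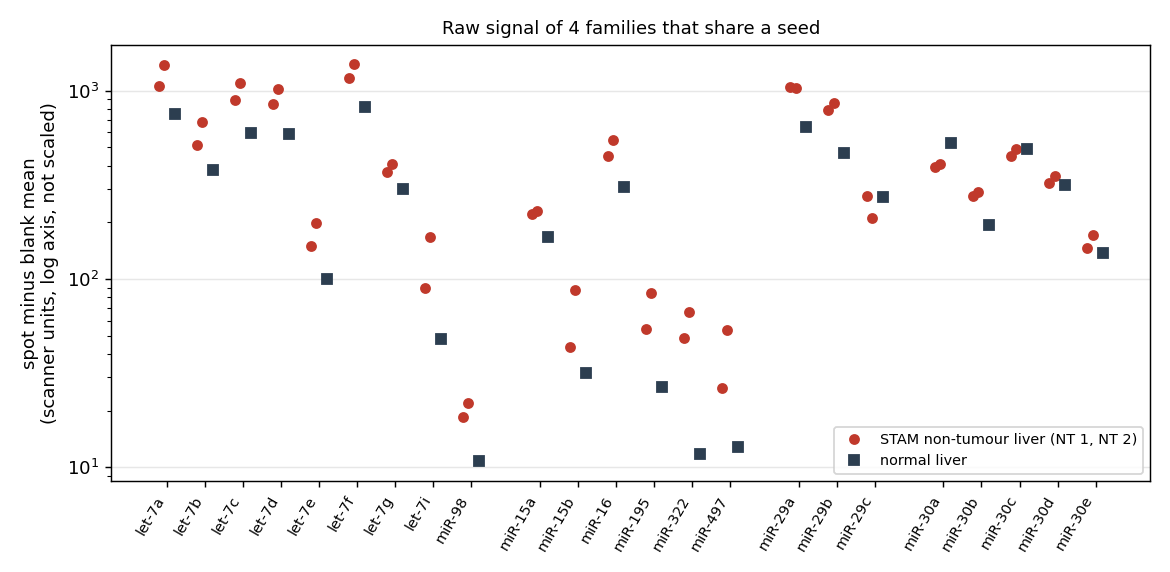
Raw signal (spot minus blank mean, log axis, not scaled between arrays) of the let-7, miR-15, miR-29 and miR-30 families; red circles are NT 1 and NT 2 and the dark square is normal liver. All 9 let-7 members and all miR-15 family members have both NT arrays on top, whereas miR-30a has the normal array on top. On this scale 57.6% of the tested probes had both NT arrays above normal liver.

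Other groups were mixed. None of the miRNAs in the following lists was called. Of 12 included miRNAs of the miR-17-92 clusters, which drive proliferation, 2 had both NT arrays above normal liver and 6 below, at a median of -0.08 that turned to 0.22 with median scaling. Of 15 included miRNAs of lipid and insulin metabolism, 9 were above and 3 below. Beside either list, 38.8% of all tested probes were above and 35% below. The median of the 15 was 0.14, the value of miR-122. MiR-33 and miR-375 among the 9 met the rule through the NT arrays only. The list shares miR-122, miR-378, miR-802, miR-143, miR-223, miR-34a, miR-27a, miR-27b and miR-375 with other lists given here. MiR-33, encoded within Srebf2 and a regulator of cholesterol export, had 8.47 and 6.82 in NT 1 and NT 2 against 2.76 in normal liver, where it was not above the threshold. MiR-103, a regulator of insulin sensitivity, had 246 and 262 in NT 1 and NT 2 against 149 in normal liver, and the related miR-107 had 208 and 234 in NT 1 and NT 2 against 133 in normal liver. Their normalized differences were 0.06 and 0.04, and 0.62 and 0.57 with median scaling. MiR-335-5p, encoded within Mest, had 31.5 and 44.8 in NT 1 and NT 2 against 5.76 in normal liver, a difference of 0.55 (SE 0.23, adjusted p = 0.383 by limma).

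Endothelial and bile duct miRNAs gave smaller counts. MiR-126-3p, the main endothelial miRNA, had 945 and 1157 in NT 1 and NT 2 against 518 in normal liver, a difference of 0.53 (SE 0.32, adjusted p = 0.468 by limma). MiR-99a and miR-100 had raw signals close to normal liver, and their differences of -0.40 and -0.35 turned sign with the scaling. Of 7 bile duct and epithelial miRNAs included, 5 had both NT arrays above normal liver and 2 below. Among all tested probes the shares were 38.8% and 35%. Of the 5, miR-429, miR-205 and miR-375 met the rule through the NT arrays only, which set their direction. MiR-200a had 13.5 and 29.8 in NT 1 and NT 2 against 6.76 in normal liver, and miR-203 had 28.5 and 24.8 in NT 1 and NT 2 against 42.8 in normal liver. MiR-210, induced by hypoxia, had 27.5 and 42.8 in NT 1 and NT 2 against 3.76 in normal liver, 5.40-fold after scaling to the same median, with a log2 difference of 0.58 (SE 0.24, adjusted p = 0.383 by limma).

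Among the other miRNAs with both NT arrays over 0.5 away from normal liver, several also differed widely between the NT arrays. MiR-92b* had a raw signal of 101 and 279 in NT 1 and NT 2 against 38.8 in normal liver, a difference of 1.06 (SE 0.39, adjusted p = 0.343 by limma). MiR-3102* had 220 and 468 in NT 1 and NT 2 against 82.8 in normal liver, and miR-3090* had 109 and 256 in NT 1 and NT 2 against 38.8 in normal liver. For these 3 miRNAs NT 2 was the higher NT array by a wide margin. MiR-5128 had 27.5 and 109 in NT 1 and NT 2 against 99.8 in normal liver, so that its raw signals overlapped although its normalized difference was -0.90 (SE 0.34). MiR-709 had 868 and 865 in NT 1 and NT 2 against 1012 in normal liver, and miR-5107 had 39.5 and 36.8 in NT 1 and NT 2 against 53.8 in normal liver. Both were lower on both NT arrays on either scale, with normalized differences of -0.65 and -0.67 and adjusted p-values of 0.311 and 0.270 by limma.

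The 8 brightest probes included miR-21 and miR-122, described above, and differed among themselves. MiR-3968 had 13269 and 12371 in NT 1 and NT 2 and 13213 in normal liver, and held the top rank on all 3 arrays, so that its normalized difference was 0 by construction; it was -0.99 with cyclic loess. MiR-5100 had 5581 and 5737 in NT 1 and NT 2 and 6127 in normal liver, a difference of -0.14, and -0.93 with cyclic loess. MiR-720, which has been recognised as a fragment of a transfer RNA, had 3044 and 3144 in NT 1 and NT 2 and 3355 in normal liver. MiR-690 had 3150 and 4237 in NT 1 and NT 2 and 3048 in normal liver; its difference of 0.27 (SE 0.04, adjusted p = 0.209 by limma) came with identical normalized values on both NT arrays, and its sign turned with the scaling. MiR-5126 had 977 and 1994 in NT 1 and NT 2 and 1068 in normal liver, so that its arrays overlapped. Let-7f had 1169 and 1378 in NT 1 and NT 2 against 821 in normal liver, a difference of 0.18. Among dimmer probes with a small p, miR-296-5p had 19.5 and 30.8 in NT 1 and NT 2 against 8.76 in normal liver, a difference of 0.31 (SE 0.07, adjusted p = 0.266 by limma).

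The lower miRNAs named for their small unadjusted p were mostly dim. MiR-193b, encoded beside miR-365, had a raw signal of 10.5 and 9.82 in NT 1 and NT 2 against 15.8 in normal liver, a difference of -0.33 (SE 0.06, adjusted p = 0.266 by limma). MiR-3069-3p had 8.47 and 10.8 in NT 1 and NT 2 against 17.8 in normal liver, and miR-3067 had 4.47 and 3.82 in NT 1 and NT 2 against 10.8 in normal liver. These 3 were lower on both NT arrays in raw signal as well. For miR-466i-5p the raw signals overlapped, at 15.5 and 19.8 in NT 1 and NT 2 and 19.8 in normal liver. MiR-665 had 4.47 and 5.82 in NT 1 and NT 2 against 9.76 in normal liver. MiR-455* and miR-466i-3p, named for their scaled raw signal, were lower on both NT arrays too, with scaled ratios of 0.274 and 0.304 and normalized differences of -0.12 and -0.15. MiR-3102-5p.2, miR-5112, miR-1902 and miR-30e* had raw ratios of NT to normal liver of 0.911, 0.929, 0.901 and 0.834 and normalized differences of -0.26 to -0.46.

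**Figure D5:**
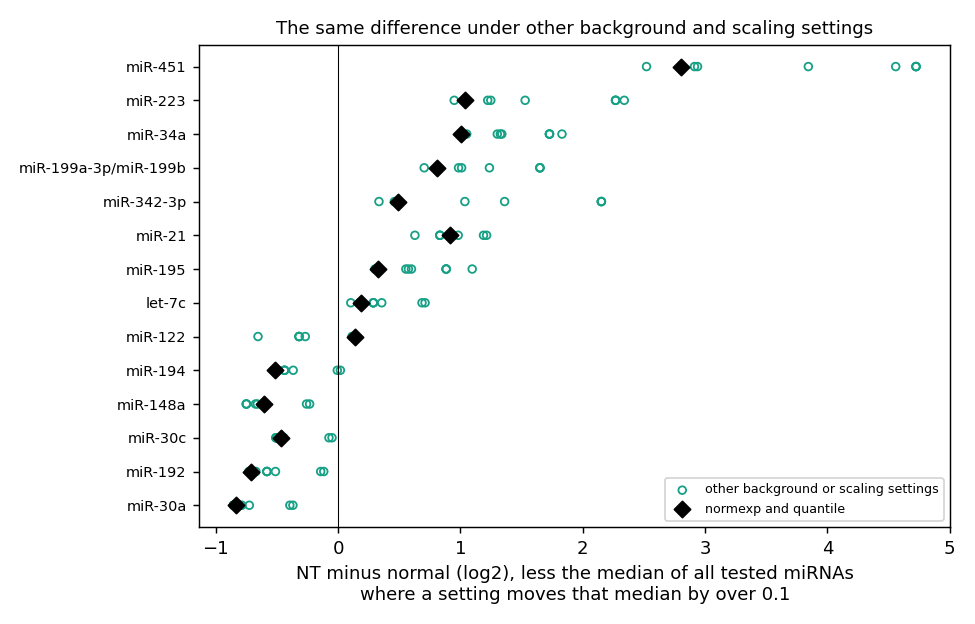
NT minus normal log2 differences of 14 miRNAs under the chosen processing (black diamonds) and 8 other background and scaling settings (open circles), less the median of all tested probes where a setting moves it by over 0.1. MiR-451 stays above 2.5 throughout, miR-122 lies on both sides of 0, and miR-194 reaches 0. The open circles of the blank-subtracted settings coincide.

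Some groups of neighbouring hairpins, which can be cut from 1 transcript, lay on the same side of normal liver. Loci were found for 333 of the 351 miRNAs, and 113 of them belonged to 39 clusters of hairpins within 10 kb. In the cluster of miR-23a, miR-27a and miR-24-2 at chr8:84208518-84208921, 3 of 4 probes had both NT arrays above normal liver, led by miR-23a with 394 and 578 in NT 1 and NT 2 against 211 in normal liver. In the cluster of miR-429, miR-200a and miR-200b at chr4:156053905-156055750, all 3 probes did, miR-429 having met the rule through the NT arrays only. In the cluster of miR-30c-1 and miR-30e at chr4:120769534-120772697, all 3 probes had both NT arrays below normal liver. In the cluster of miR-29b-2 and miR-29c at chr1:195037040-195037634, 3 probes had both NT arrays above normal liver and 1 had both below. These clusters were chosen after their values were seen. Among all tested probes, taken singly, 38.8% had both NT arrays above normal liver and 35% both below. The miRNAs miR-24, miR-30c and miR-29b are also encoded at other loci, so their probes do not read these clusters alone. Of 53 pairs of arms from the same hairpin, 38 had each arm with both NT arrays on 1 side of normal liver, by any margin. In 25 of the 38 the arms lay on the same side (11 higher, 14 lower), and in 13 on opposite sides. Arms such as miR-144, miR-144* and miR-21* met the rule through the NT arrays only, which set their direction.

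The spread between arrays was smallest for dim miRNAs, whose differences the offset compresses. Among 163 miRNAs with a mean raw signal under 10, the SD of the NT minus normal difference was 0.10 and that of NT 1 minus NT 2 was 0.07. Among 69 miRNAs with a signal of 50 to 500, they were 0.59 and 0.38, and among 26 brighter ones 0.42 and 0.40. The filter also set directions: of the 57 miRNAs above the threshold on both NT arrays but not in normal liver, 46 had both NT arrays higher, and of the 30 above it in normal liver and on 1 NT array, 26 had both lower. Just inside the threshold were miR-207, miR-551b and miR-664, whose second-highest spot lay 2.08 blank SD above the blank mean. Just outside it were miR-669e, miR-129-1-3p and miR-760-5p, at 1.85.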

How the data were processed

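RNA was labelled with Hy5 and hybridised to Toray mouse miRNA arrays (design version 17), 1 colour, scanned at 635 nm. The deposited scanner files hold raw intensity as pixel medians of spots and of the background around them; no subtraction or scaling step is noted, per the file headers. A second deposited table holds the authors' processed intensity, linear, with a median of 25 per array. In R 4.3.3 with limma 3.58.1, background correction by normexp (all spots, offset 50), log2 and quantile normalization over 1095 mouse probes were applied; miR-434-5p was left out because its spot on HCC 1 was marked not OK. Blank thresholds used all 1818 blank spots. NT, normal and HCC were fitted in 1 limma model over 6 arrays (3 residual and 1.49 prior degrees of freedom), with 474 probes above the threshold on at least 2 arrays and Benjamini-Hochberg adjustment at 0.05. The single normal array was assumed to vary like the other groups. Named miRNAs were those past the threshold, the 10 per direction with the smallest p, the 5 per direction with the largest scaled raw difference and the 8 brightest. Those and the listed miRNAs were chosen with earlier results of these data known; miRNAs with both NT arrays over 0.5 away were named besides. Scripts were tested on simulated data. Probes keep the design's names; arms were matched to RefSeq names by hand.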

Additional observations from a re-analysis of the deposited data

Results flagged for a closer look

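The arrays carry 39 probes for viral miRNAs, which enter no comparison above. In NT 1, 12 of them lay above the blank threshold and in NT 2, 15 did, against 8 in normal liver. On at least 2 of these 3 arrays, 10 viral probes (25.6%) were above the threshold, against 32.1% of the mouse probes. The brightest viral probe had a raw signal of 236 in NT 1 and 216 in NT 2, against 280 in normal liver. Of 24 negative control spots, 1 in NT 1 and 4 in NT 2 were above the threshold, against 1 in normal liver. Their part in the calls of dim mouse probes was not tested.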

How the results depend on the processing

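The count of miRNAs past the threshold was 1 as reported. It was 0 with median scaling (33 probes at an unadjusted p under 0.05), with upper-quartile scaling (35), with the NT and normal arrays alone in the fit (46) and with chip as a block (58), all by limma. It ranged from 0 to 1 when 1 NT or HCC array was left out, and was 0 without NT 1, NT 2, HCC 1 or HCC 2-2. In the authors' processed values, 5 of 344 probes passed: miR-451, miR-222, miR-210, miR-532-5p and miR-223, all higher in NT liver. Under the chosen processing miR-532-5p ran the other way, at -0.06, with both NT arrays below normal liver. In the other settings miR-451 alone passed. The cause of these differences was not tested. Settings were the 23 tried, of which raw signal without scaling and equal-sum scaling were chosen after seeing the data. The median of all tested probes moved to -0.16 with 75th percentile scaling of blank-subtracted signal, 0.32 in the authors' values, 0.45 without scaling and 0.20 with equal-sum scaling. The 75th percentile scaling gave 117 higher and 169 lower, equal-sum scaling 166 and 116. No paired analysis was possible because the single normal liver carries no replicate number to share with the NT samples. Arrays of 2 against 1, no normal replicate and signals near the blank spots for most probes limit every value.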
